A study of Mus musculus with 6 samples.

Results

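The genes described here are 33 genes of the cardiomyocyte sarcomere, calcium cycling and energy supply, measured in preparations of cardiac fibroblasts. They were chosen by gene symbol, and all 33 were found among the 34745 genes of the deposited expression table. RNA-seq was performed on fibroblasts prepared from left ventricles of male mice of 8 to 10 weeks, on Day 7 after a myocardial infarction (MI) made by permanently tying off the left anterior descending (LAD) artery. The groups were 3 libraries labelled KO, described as from KDM5B knockout mice on a C57BL/6 background in which CRISPR/Cas9 removed the JmjC domain of *Kdm5b* from every cell, and 3 libraries labelled WT, from wild type littermates. Both groups had MI, and sham-operated hearts were not analysed here. The sources used here give no sort or gate for the isolated cells and do not say whether each library came from a separate mouse, so the tests measure the spread between these libraries.

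The sarcomere is the contractile unit of striated muscle. Thick filaments of myosin pull on thin filaments of actin, tropomyosin and troponin, titin spans the unit from Z-disc to M-band, and Z-disc proteins anchor the thin filaments. Contraction starts when calcium enters through the L-type channel and releases more calcium from the sarcoplasmic reticulum through the ryanodine receptor, and it ends when SERCA2a pumps the calcium back under the control of phospholamban and, mainly in atria, sarcolipin. Many of these proteins come in fetal and adult or in atrial and ventricular forms. The adult mouse ventricle uses the alpha myosin heavy chain *Myh6*, cardiac troponin I *Tnni3* and the ventricular light chain *Myl2*, whereas *Myh7*, *Tnni1* and *Acta1* belong to the fetal program of the rodent ventricle and *Myl7*, *Myl4*, *Sln* and *Nppa* are enriched in atria. Fibroblasts do not build sarcomeres, although *Atp2a2* is also expressed in many other cell types.

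Between 12025403 and 15329427 counts per library fell on genes. With 3 counts taken as the limit of detection, the floor was at most 0.249 CPM (counts scaled to library size). *Kdm5b* (chromosome 1 from 134560171 to 134635285 in mm10), read as the check of the labels, had 98.1, 107 and 105 CPM in the KO-labelled libraries against 108, 129 and 123 CPM in the WT-labelled ones, and the difference did not pass the threshold (log2 fold change -0.22, standard error 0.07, adjusted p = 0.0574 from edgeR; 0.0188 to 0.175 over the alternatives). The log2 fold change ran from -0.29 to 0.19 over the 16 alternative fits, was above 0 with scaling on fibroblast or macrophage markers (0.19 and 0.16), and passed in 3 of them, among them the fit without WT replicate 1 (adjusted p = 0.0188 from edgeR). The mean was 13.9% lower in the KO-labelled libraries, so this count does not bear out the label of a knockout. The deletion removes a part of the gene whereas the count covers all of it. Directions are therefore given between libraries labelled KO and libraries labelled WT. Fibroblast markers were abundant in every library, with a summed FPKM (fragments scaled to gene length and library size) over 12 genes of 3109 to 3586 in the KO-labelled libraries against 4249 to 4521 in the WT-labelled ones. Macrophage markers were abundant as well, with 825 to 853 FPKM and 1015 to 1097 FPKM over 10 genes. Endothelial markers (10 genes) differed most, with 213 to 313 FPKM in the KO-labelled libraries against 43.5 to 44.7 FPKM in the WT-labelled ones. Lymphocyte markers were near the floor (at most 0.213 FPKM in any library over 8 genes, with at most 5 counts in *Cd4*, 3 in *Cd79a* and 2 in *Ms4a1*).

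All but 1 of the cardiomyocyte genes had counts in every library, and the exception was *Myh7*. The FPKM scale divides counts by gene length. On it, 9 of the 33 genes had a mean of at least 10, a further 15 lay between 1 and 10, and 9 were below 1. These levels, their order and shares rest on the lengths implied by the deposited values, such as 8747 bases for *Tnnt2* and 1618 for *Actc1*. *Tnnt2* had more counts than *Actc1* (16846 against 13075) and the lower FPKM. The median of all genes tested was 4.41 FPKM. *Nppa*, which encodes the atrial natriuretic peptide, was the most abundant of the 33, at rank 116 among all listed genes, with 215 ± 13.8 FPKM (SD, n = 3) in the KO-labelled libraries against 284 ± 7.52 FPKM in the WT-labelled ones. Cardiac alpha-actin *Actc1* followed with 82.7 ± 4.68 and 108 ± 1.73 FPKM, and the atrial regulatory light chain *Myl7* with 55.5 ± 0.980 and 68.3 ± 5.89 FPKM. *Nppa*, *Actc1* and *Myl7* together made up between 61.7% and 64.0% of the summed FPKM of the 33 genes. The SERCA2 pump gene *Atp2a2*, the alpha myosin heavy chain *Myh6* and cardiac troponin T *Tnnt2* came next.

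Other genes that are abundant in the adult ventricle stood further down in this order, which rests on the implied lengths (3054 bases for *Myl2*). The muscle creatine kinase *Ckm* had 0.924 ± 0.161 and 0.959 ± 0.192 FPKM, mitochondrial creatine kinase *Ckmt2* 0.744 ± 0.161 and 0.614 ± 0.241 FPKM, and the ventricular light chain *Myl2* 6.59 ± 0.365 and 8.22 ± 0.799 FPKM. *Myh7*, the beta myosin heavy chain, was the lowest, with 1, 3 and 0 counts in the KO-labelled libraries against 4, 2 and 3 counts in the WT-labelled ones. Its 13 counts in all compare with 22778 for *Myh6*. *Mhrt*, which overlaps *Myh7* on the other strand, had a mean of 4.83 counts per library against 2.17 for *Myh7*, so even this low count is uncertain. Some neighbours in the order did not differ beyond their spread, such as *Mb* with 14.6 ± 1.30 and 17.4 ± 5.11 FPKM and *Tnnc1* with 13.2 ± 3.08 and 16.5 ± 0.727 FPKM. *Atp2a2*, with 63.1 ± 1.39 and 59.5 ± 3.15 FPKM, stood above *Myl7* in the KO-labelled libraries and had the lower mean in the WT-labelled ones.

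**Figure D1:**
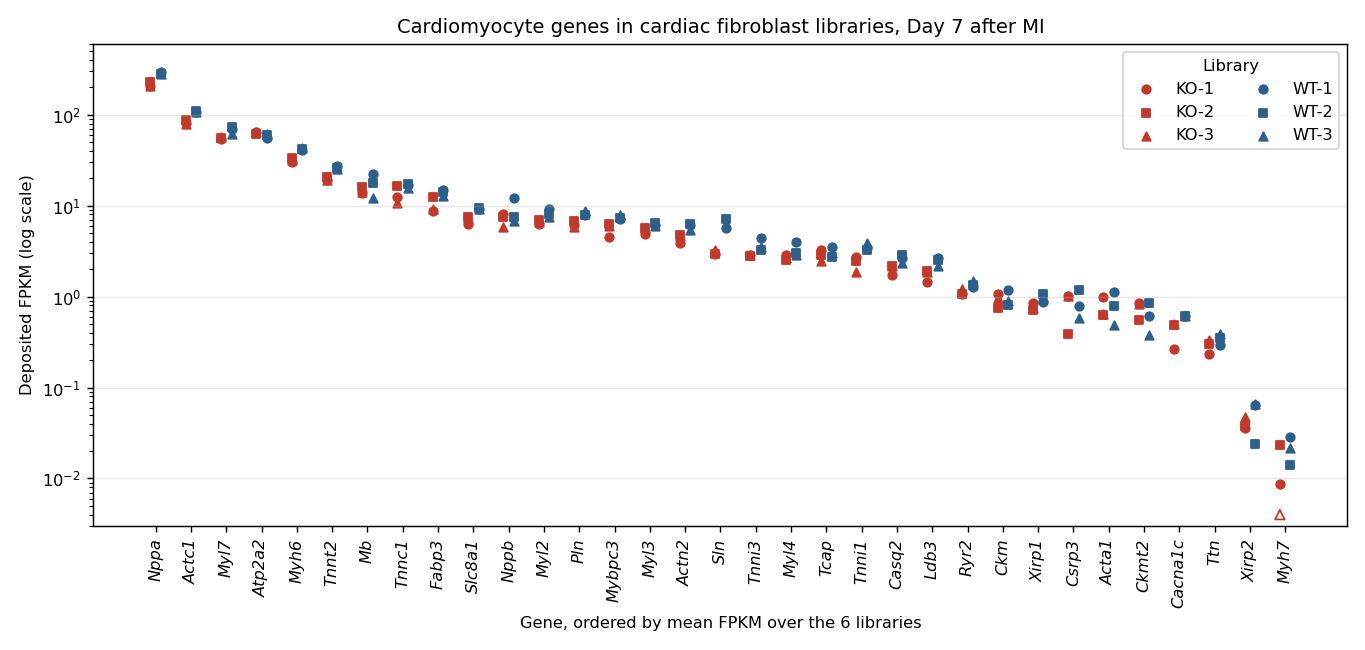
Deposited FPKM (log scale) of the 33 cardiomyocyte genes, ordered by mean level, with 1 point per library (red, labelled KO; blue, labelled WT; the shape gives the replicate number; the open triangle at the lower edge is *Myh7* at 0 in KO replicate 3). *Nppa* and *Actc1* lead, *Ckm*, *Acta1* and *Ckmt2* lie near 1 FPKM or below, and the WT libraries of most genes sit above the KO libraries, a direction that depends on the scaling.

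Promoters of the 3 most abundant genes are shown with those of *Myh6* and *Myh7*, which are neighbours on chromosome 14 and had 22778 and 13 counts. Each is the 250 bases before the start site of the RefSeq entry (GRCm38.p6), 5′ to 3′ on the strand of the gene, with motif matches in capitals.
Nppa (chr4:148000472-148000721, plus strand): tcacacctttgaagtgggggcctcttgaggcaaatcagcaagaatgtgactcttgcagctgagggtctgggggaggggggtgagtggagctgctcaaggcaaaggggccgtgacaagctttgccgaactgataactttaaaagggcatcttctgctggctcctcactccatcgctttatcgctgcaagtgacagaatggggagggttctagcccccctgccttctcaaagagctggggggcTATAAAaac
Actc1 (chr2:114052876-114053125, minus strand): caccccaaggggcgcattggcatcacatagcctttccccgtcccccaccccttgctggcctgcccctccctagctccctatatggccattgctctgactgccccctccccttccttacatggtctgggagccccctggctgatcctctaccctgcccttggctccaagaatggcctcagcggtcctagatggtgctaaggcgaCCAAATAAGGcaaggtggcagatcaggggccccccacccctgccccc
Myl7 (chr11:5898783-5899032, minus strand): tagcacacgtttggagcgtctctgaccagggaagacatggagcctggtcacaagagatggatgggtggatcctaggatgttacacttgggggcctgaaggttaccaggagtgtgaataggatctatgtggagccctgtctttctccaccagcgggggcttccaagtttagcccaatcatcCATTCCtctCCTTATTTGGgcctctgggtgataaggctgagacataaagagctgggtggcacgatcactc
Myh6 (chr14:54966608-54966857, minus strand): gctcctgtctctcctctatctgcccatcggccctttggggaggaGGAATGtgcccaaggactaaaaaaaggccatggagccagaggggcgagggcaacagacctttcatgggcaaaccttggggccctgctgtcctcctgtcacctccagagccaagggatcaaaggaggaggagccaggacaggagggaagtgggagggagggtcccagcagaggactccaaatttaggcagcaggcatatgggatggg
Myh7 (chr14:54994627-54994876, minus strand): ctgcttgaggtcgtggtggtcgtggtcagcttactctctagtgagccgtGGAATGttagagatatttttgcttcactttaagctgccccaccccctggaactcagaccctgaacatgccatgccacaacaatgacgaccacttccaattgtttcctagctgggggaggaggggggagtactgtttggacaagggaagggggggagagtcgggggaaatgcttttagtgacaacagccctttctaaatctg
The motifs searched on both strands were the TATA box TATAAA, the GATA motif AGATAA, the MCAT motif CATTCC (the site of TEAD factors) and the CArG box, the site of serum response factor. In the promoters shown, the capitals mark a TATA box in *Nppa*, a CArG box in *Actc1*, an MCAT motif and a CArG box in *Myl7*, and an MCAT motif in *Myh6* and in *Myh7*. Entries were found for 29 of the 33 genes, with 39 promoters. A CArG box was in 15.4% of these promoters, in *Acta1*, *Actc1*, *Ldb3*, *Myl3* and *Myl7*, and in 1.47% of all 32851 promoters of the same length. An MCAT motif was in 20.5% against 12.6%, a GATA motif in 12.8% against 9.99%, and a TATA box in 12.8% against 12.4%. The RefSeq start of *Actc1* lies 673 bases and that of *Myh6* 320 bases from the start of the gene in the deposited table, so these windows are set by RefSeq. A match is a description of these letters and not a binding site.

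The libraries labelled KO were compared with those labelled WT with edgeR (quasi-likelihood test, TMM normalization) over 14084 genes, and 31 of the 33 cardiomyocyte genes passed its filter on low counts (*Myh7* and *Xirp2* did not). Of these 31, 14 were lower in the libraries labelled KO at an adjusted p under 0.05 and 0 were higher, where 12.5% of all genes tested were lower and 17.7% higher (30.2% in either direction). In 29 of the 31 the log2 fold change was below 0, against 52.3% of all genes. At an unadjusted p under 0.05, 21 of the 31 were lower and 0 higher, where 19.0% of all genes tested were lower and 22.4% higher. In 21 of the 31, all 3 libraries labelled KO were below all 3 labelled WT, against 22.4% of all genes tested (47.0% did not overlap in either direction), and the 14 genes called were among them. The median log2 fold change of the 31 was -0.38, against -0.02 over all genes tested, and with the libraries scaled so that the fibroblast markers have a median ratio of 1 it was 0.02, with 1 gene lower and 1 higher. That scaling moves the median of all genes from -0.02 to 0.39 and their calls from 1760 lower and 2488 higher to 46 lower (0.327%) and 8538 higher (60.6%). Scaled in the same way on macrophage markers, the median of the 31 was 0.00 (again 1 lower and 1 higher).

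In the median, the cardiomyocyte genes thus differed between the labels by about as much as the fibroblast markers. Singly, the 31 cardiomyocyte genes ran from -1.08 to 0.24 on the log2 scale. Of the 12 fibroblast markers 10 were lower and 0 higher with TMM normalization, and their median was -0.41. The collagen genes *Col1a1*, *Col1a2* and *Col3a1*, the most abundant of these markers, had log2 fold changes of -0.44, -0.38 and -0.42. Scaled on their own median ratio, 0 of the fibroblast markers passed in either direction. That scaling centres these markers near 0 by construction, so this count says nothing about them. Macrophage markers had a median of -0.39 (6 of 10 lower, *Cd68* higher; -0.42, -0.31 and -0.38 in the abundant *Lyz2*, *Cd14* and *Adgre1*). Mural and smooth muscle markers, with 9 genes tested, had a median of -0.42 (6 lower, *Abcc9* higher), with -0.37 in *Acta2*, -0.45 in *Tagln* and -0.42 in *Pdgfrb*. Endothelial markers moved the other way, with 9 of 10 higher (*Cldn5* did not pass) and a median of 2.22, led in abundance by *Cdh5* (2.31), *Pecam1* (3.98) and *Tie1* (3.07). The part of this endothelial RNA in the lower share of the other lists was not tested. In bulk RNA, fewer cardiomyocytes, less RNA per cardiomyocyte and a larger share of RNA from other cells cannot be told apart.

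Summed over the 33 genes, the libraries labelled KO had 554, 604 and 558 FPKM and the libraries labelled WT 739, 726 and 700 FPKM. The groups did not overlap. Divided by the summed FPKM of the 12 fibroblast markers in the same library, the sum was 17.8%, 16.8% and 16.3% in the KO-labelled libraries against 17.4%, 16.1% and 15.5% in the WT-labelled ones, and here the groups overlapped. The lower cardiomyocyte sum in the libraries labelled KO was therefore matched by a lower fibroblast sum.

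**Figure D2:**
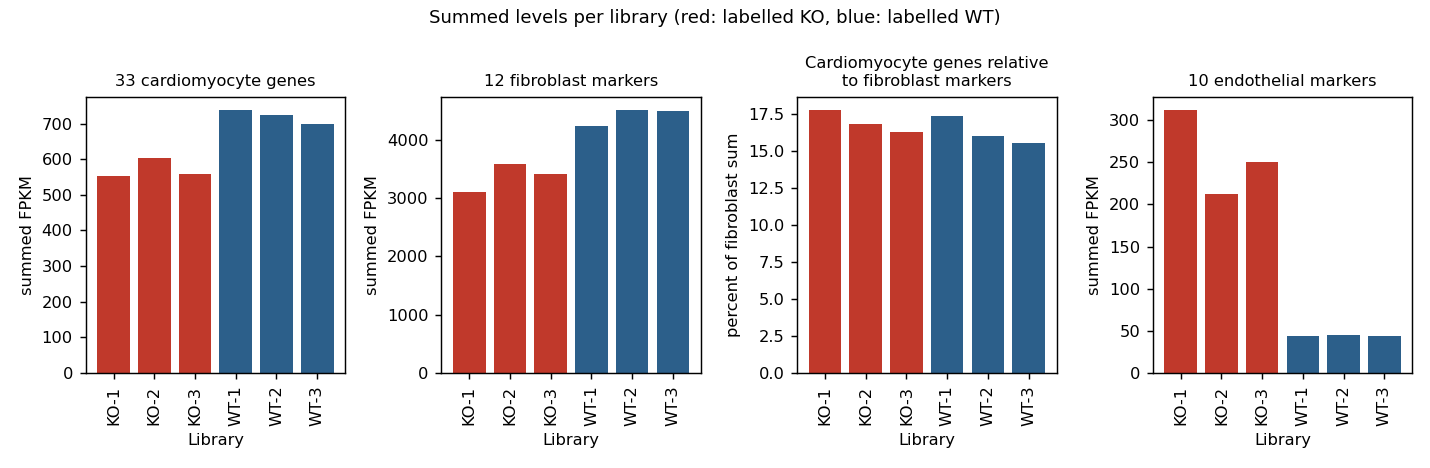
Summed FPKM per library of the 33 cardiomyocyte genes, the 12 fibroblast markers and the 10 endothelial markers, and the cardiomyocyte sum as a percentage of the fibroblast sum (red, labelled KO; blue, labelled WT; 1 bar per library, no error bars). The cardiomyocyte sum runs from 554 to 604 FPKM in KO and from 700 to 739 FPKM in WT, while its percentage of the fibroblast sum overlaps between the labels, at 16.3% to 17.8% and 15.5% to 17.4%.

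**Figure D3:**
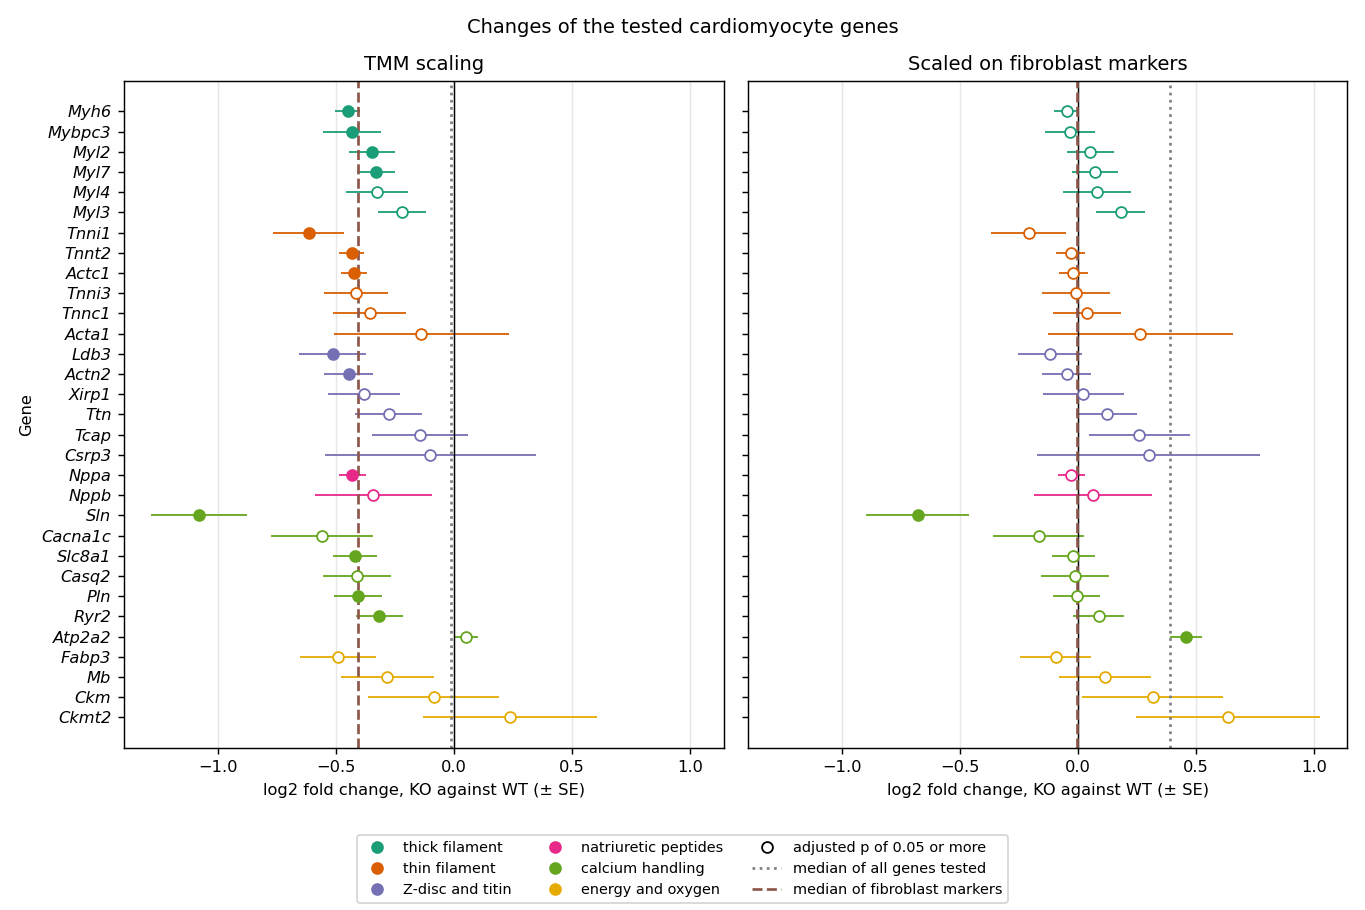
Log2 fold change with its standard error (edgeR) of the 31 cardiomyocyte genes tested, KO against WT, with TMM scaling on the left and with scaling on fibroblast markers on the right, coloured by role, filled where the adjusted p is under 0.05 (dashed line, fibroblast marker median; dotted line, median of all genes). With TMM most genes lie near the fibroblast median of -0.41 and 14 are called lower, whereas with fibroblast scaling most lie around 0 and only *Sln* (lower) and *Atp2a2* (higher) are called.

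In the thick filament, 4 of the 6 genes tested were lower with TMM (median log2 fold change -0.34) and 0 with fibroblast scaling (median 0.06). Of all genes tested, 12.5% were lower with TMM and only 0.327% with fibroblast scaling. *Myh6* had 214, 242 and 228 CPM in the KO-labelled libraries against 304, 314 and 317 CPM in the WT-labelled ones, without overlap, and fell by 26.9% (log2 fold change -0.45, standard error 0.05, adjusted p = 5.9e-04 from edgeR). *Mybpc3*, the myosin-binding protein C that regulates cross-bridge cycling, had 21.1, 29.4 and 27.9 CPM against 33.6, 35.0 and 37.5 CPM (log2 fold change -0.43, adjusted p = 0.0287 from edgeR), with KO replicate 1 the lowest. This call was lost without KO replicate 3, WT replicate 1, WT replicate 2 or WT replicate 3 (adjusted p = 0.0509, 0.0507, 0.0651 and 0.0892 from edgeR). Of the light chains, *Myl7* had 54.7, 55.3 and 56.6 FPKM against 69.8, 73.2 and 61.8 FPKM, and *Myl2* 6.26, 6.99 and 6.54 FPKM against 9.10, 8.01 and 7.54 FPKM. They had log2 fold changes of -0.33 and -0.35 (adjusted p = 0.0153 and 0.0275 from edgeR), and their libraries did not overlap. The call of *Myl2* was lost without KO replicate 1, KO replicate 3, WT replicate 1 or WT replicate 2 (adjusted p = 0.0834, 0.0801, 0.0818 and 0.0571 from edgeR), and that of *Myl7* without WT replicate 2 (adjusted p = 0.0551). With the replicate number as a block the call of *Myl2* was lost as well (adjusted p = 0.0521 from edgeR). The ventricular essential light chain *Myl3* and its atrial counterpart *Myl4* did not pass (log2 fold change -0.22 and -0.33, adjusted p = 0.139 and 0.0967 from edgeR), although their libraries did not overlap. With fibroblast scaling, *Myl2*, *Myl3*, *Myl4* and *Myl7* had values above 0.

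In the thin filament, 3 of 6 genes were lower with TMM and 0 with fibroblast scaling, against 12.5% and 0.327% of all genes tested. *Tnnt2* had 164, 180 and 166 CPM in the KO-labelled libraries against 238, 228 and 222 CPM in the WT-labelled ones (log2 fold change -0.44, standard error 0.05, adjusted p = 7.2e-04 from edgeR). *Actc1* had 128, 142 and 127 CPM against 177, 181 and 175 CPM, a log2 fold change of -0.42. The groups did not overlap in either gene, and the libraries within a label lay close together. *Tnni1*, the slow skeletal troponin I of the fetal heart, had 11.5, 10.7 and 7.99 CPM against 15.1, 14.2 and 16.8 CPM (log2 fold change -0.62, standard error 0.15, adjusted p = 0.0158 from edgeR), and its call was lost without WT replicate 3 (adjusted p = 0.0552). The adult form *Tnni3* had a log2 fold change of -0.42 and did not pass (adjusted p = 0.0502 from edgeR), although it passed with upper quartile scaling (0.0333) and without WT replicate 2 (0.0458). Cardiac troponin C *Tnnc1*, which binds the activating calcium, had 18.2, 24.7 and 15.7 CPM against 25.3, 25.9 and 23.7 CPM, so that KO replicate 2 lay among the WT libraries (log2 fold change -0.36, adjusted p = 0.118 from edgeR). Without KO replicate 2 it passed (log2 fold change -0.56, adjusted p = 0.00769 from edgeR), and leaving out KO replicate 3 gave -0.21. *Tnnc1* lies over the more highly counted *Nisch* on the other strand, and how strand was handled in counting is not given in the sources used here. Skeletal alpha-actin *Acta1* had only 10 to 23 counts per library (log2 fold change -0.14, standard error 0.37).

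Of the 6 genes of the Z-disc and titin that were tested, *Actn2* and *Ldb3* passed with TMM (0 of the 6 with fibroblast scaling). Over all genes tested, 12.5% were lower with TMM and 0.327% with fibroblast scaling. *Actn2*, the alpha-actinin that crosslinks thin filaments, had 18.0, 22.1 and 21.5 CPM in the KO-labelled libraries against 28.6, 29.9 and 25.5 CPM in the WT-labelled ones (log2 fold change -0.45, standard error 0.10, adjusted p = 0.0135 from edgeR). *Ldb3*, the Z-disc protein also called Cypher, had 8.76, 11.7 and 11.3 CPM against 16.6, 15.6 and 13.4 CPM (log2 fold change -0.52, adjusted p = 0.0263 from edgeR), and its call was lost without KO replicate 1, KO replicate 3, WT replicate 1 or WT replicate 2 (adjusted p = 0.0667, 0.0522, 0.0821 and 0.0718). That call was also lost with the replicate number as a block (adjusted p = 0.0558 from edgeR). Titin (*Ttn*) had 31.1, 40.1 and 44.2 CPM against 40.2, 47.8 and 52.4 CPM. The libraries overlapped, and the gene did not pass (log2 fold change -0.28, adjusted p = 0.173 from edgeR). With the replicate number as a block *Ttn* was called lower (log2 fold change -0.29, adjusted p = 0.0235 from edgeR). The titin cap gene *Tcap* and the muscle LIM protein *Csrp3* had log2 fold changes of -0.15 and -0.10 with standard errors of 0.20 and 0.45, so changes of the size seen in *Actn2* were not detectable in *Csrp3* at 5 to 17 counts per library. *Xirp1*, an actin-binding Xin repeat protein, had a log2 fold change of -0.38 (adjusted p = 0.0958 from edgeR) and overlaps *Cx3cr1* on the same strand, a gene with more counts, so its count is uncertain. *Xirp2* had 5 to 13 counts per library and was not tested.

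The natriuretic peptide genes *Nppa* and *Nppb* are neighbours on chromosome 4 and mark atrial and stressed ventricular cardiomyocytes. *Nppa* had 176, 199 and 178 CPM in the KO-labelled libraries against 256, 246 and 245 CPM in the WT-labelled ones. The groups did not overlap, and the gene fell by 25.9% with TMM (log2 fold change -0.43, standard error 0.06, adjusted p = 0.00106 from edgeR), while with fibroblast scaling its log2 fold change was -0.03. *Nppb* had 6.22, 5.85 and 4.45 CPM against 9.59, 5.94 and 5.33 CPM. Only WT replicate 1 stood clear of the libraries labelled KO, and the gene did not pass (log2 fold change -0.34, adjusted p = 0.332 from edgeR). Without WT replicate 1 the log2 fold change was -0.042.

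Calcium handling held the genes that differed most from each other. *Sln*, which encodes the SERCA inhibitor sarcolipin, had 1.47, 1.50 and 1.68 CPM in the KO-labelled libraries against 2.94, 3.69 and 3.27 CPM in the WT-labelled ones. In counts these are 18, 20 and 26 against 42, 54 and 46. The groups did not overlap, and *Sln* fell by 52.7% (log2 fold change -1.08, standard error 0.20, adjusted p = 0.00516 from edgeR). It was the only one of the 31 genes that was called lower in all 16 alternative fits, with a log2 fold change of -0.68 with fibroblast scaling and adjusted p from 4.6e-04 (limma) to 0.0252 (edgeR without WT replicate 2). Phospholamban (*Pln*), the main SERCA inhibitor of the ventricle, had 14.8, 16.9 and 14.4 CPM against 19.7, 19.7 and 21.9 CPM (log2 fold change -0.41, adjusted p = 0.0166 from edgeR), a change that was 0.00 with fibroblast scaling and whose call was lost without KO replicate 3 or WT replicate 3 (adjusted p = 0.0604 and 0.0596).

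*Atp2a2*, the pump that both peptides inhibit, had 594, 577 and 594 CPM in the KO-labelled libraries against 533, 580 and 592 CPM in the WT-labelled ones. The libraries overlapped, and the gene did not pass in edgeR (log2 fold change 0.05, standard error 0.05, adjusted p = 0.483). With fibroblast scaling it was called higher, at 0.46 (standard error 0.07, adjusted p = 5.3e-04), a scaling with which 60.6% of all genes tested were higher and the median of all genes was 0.39. *Atp2a2* made up 10.2% to 11.6% of the summed FPKM of the 33 genes in the KO-labelled libraries against 7.57% to 8.86% in the WT-labelled ones. It is the gene of the 33 with the most counts (48608 in all), and the counts do not say how many came from cardiomyocytes.

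The sodium-calcium exchanger *Slc8a1*, which removes calcium from the cell, had 18.0, 22.1 and 21.4 CPM in the KO-labelled libraries against 27.1, 27.8 and 27.4 CPM in the WT-labelled ones (log2 fold change -0.42, adjusted p = 0.0109 from edgeR). The ryanodine receptor *Ryr2*, the calcium release channel, had 17.8, 17.9 and 20.4 CPM against 21.7, 22.7 and 25.5 CPM and was just inside the threshold (log2 fold change -0.32, adjusted p = 0.0439 from edgeR) and passed in 5 of the 16 alternative fits. Its adjusted p was 0.123, 0.113, 0.0796 and 0.135 without KO replicate 1, KO replicate 2, WT replicate 2 and WT replicate 3. Calsequestrin (*Casq2*), which stores calcium, and the L-type channel *Cacna1c* were just outside it, with log2 fold changes of -0.41 and -0.56 (adjusted p = 0.0624 and 0.0837 from edgeR). *Casq2* passed with upper quartile scaling (adjusted p = 0.0454 from edgeR). *Cacna1c* had 8.35, 15.8 and 16.1 CPM against 19.9, 20.1 and 19.8 CPM. KO replicate 1 was far below the other libraries, and without it the gene passed (edgeR log2 fold change -0.31, adjusted p = 0.0468). With all libraries it passed in DESeq2 (log2 fold change -0.56, adjusted p = 0.0251). Among all 7 calcium genes, 4 were lower with TMM, against 12.5% of all genes tested. With fibroblast scaling *Sln* alone was lower and *Atp2a2* higher, against 0.327% and 60.6% of all genes tested.

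Of the energy and oxygen genes, 0 of 4 passed the threshold in edgeR and 1 of 4 (*Fabp3*) had an unadjusted p under 0.05. Of all genes tested, 12.5% were lower at the threshold and 19.0% at an unadjusted p under 0.05. *Fabp3*, the heart fatty acid-binding protein, had 7.04, 10.3 and 7.41 CPM in the KO-labelled libraries against 12.3, 11.9 and 10.7 CPM in the WT-labelled ones, without overlap (log2 fold change -0.49, standard error 0.16, adjusted p = 0.0501 from edgeR), and passed in 5 of the 16 alternative fits, among them the fit without KO replicate 2 (log2 fold change -0.67, adjusted p = 0.00947). It lies over *Zcchc17* on the other strand, and 21.7% of its 100-base windows also occur in a pseudogene transcript. Myoglobin (*Mb*), the oxygen store of muscle, had 18.9, 22.6 and 19.7 CPM against 31.8, 25.5 and 17.3 CPM. WT replicate 3 was the lowest library of all and WT replicate 1 the highest (log2 fold change -0.28, adjusted p = 0.317 from edgeR). Without WT replicate 3 the gene passed (log2 fold change -0.49, adjusted p = 0.0355 from edgeR), and without WT replicate 1 its log2 fold change was -0.0689 (adjusted p = 0.804). *Ckm* and *Ckmt2* had 14 to 24 and 8 to 19 counts per library, with log2 fold changes of -0.09 and 0.24 and standard errors of 0.28 and 0.37.

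The libraries within a label lay close together for most of the 31 genes, with a median coefficient of variation of 10.6% in the KO-labelled libraries against 8.72% in the WT-labelled ones. Besides the genes already named as overlapping others, *Myl3*, *Pln* and *Cacna1c* lie over a counted gene on the other strand (*Pth1r*, *Cep85l* and *Dcp1b*) and *Tnni3* over *Dnaaf3* on its own strand, so their counts are uncertain to that extent.

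Ratios of paired genes within a library do not depend on its scaling. They were computed for 6 pairs as log2 ratios of counts per length and compared between the labels by an exact permutation test (two-sided) of the 6 libraries, where 3 against 3 libraries cannot give a p below 0.1. The lengths, implied by the deposited counts and FPKM, set the level of each ratio but not its difference between the labels. The atrial light chain *Myl7* was 7.92- to 8.72-fold above the ventricular *Myl2* in the KO-labelled libraries against 7.66- to 9.14-fold above it in the WT-labelled ones, although the cells came from the left ventricle. The mean log2 ratios were 3.07 ± 0.08 (SD, n = 3) and 3.05 ± 0.13, and the difference of 0.02 lay within the spread (exact permutation test, p = 0.9). *Myl4* to *Myl3*, the essential light chains, had ratios of 0.447 to 0.583 in KO and 0.474 to 0.636 in WT (difference of the log2 ratio -0.09, exact permutation test, p = 0.5). Both levels depend on the lengths, which are 590 bases for *Myl7* and 3054 for *Myl2*, and 5565 for *Myl4* and 2700 for *Myl3*. In counts, *Myl7* had 388, 433 and 512 against 230, 283 and 306 for *Myl2* in the KO-labelled libraries, and 594, 643 and 519 against 401, 364 and 328 in the WT-labelled ones. *Myl7* thus led on both scales. *Myl4* had more counts than *Myl3* in KO replicate 1 (190 and 158) and WT replicate 1 (316 and 241) and fewer in the other libraries, so its lower level per length in every library rests on the division by length.

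The fetal to adult ratios also overlapped between the labels. *Tnni1* stood at 0.933, 0.889 and 0.654 of *Tnni3* in the KO-labelled libraries and at 0.785, 0.988 and 1.11 in the WT-labelled ones, so the order of fetal and adult troponin I per length was not the same in every library (lengths 4312 and 3135 bases, difference of the log2 ratio -0.22, exact permutation test, p = 0.4). That difference ran from -0.36 without WT replicate 1 to -0.0609 without KO replicate 3. *Acta1* made up 0.711% to 1.21% of the summed FPKM of *Acta1* and *Actc1* in KO and 0.456% to 1.02% in WT (difference of the log2 ratio 0.35, 0.0585 to 0.62 with each library left out, exact permutation test, p = 0.4). No 100-base window of the *Acta1* or *Actc1* transcripts occurs in a transcript of another gene. The *Myh7* to *Myh6* ratio rested on 0 to 4 counts of *Myh7* per library and did not separate the labels (exact permutation test, p = 0.7), and 10.0% of the 100-base windows of *Myh6* also occur in *Myh7*. The 3 fetal forms therefore held unlike shares, with *Tnni1* near its adult counterpart per length and *Acta1* and *Myh7* far below theirs.

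*Sln* to *Pln*, a pair of different SERCA inhibitors and not of isoforms, was the one ratio of the 6 without overlap. It was 0.491, 0.438 and 0.568 in the KO-labelled libraries against 0.727, 0.910 and 0.726 in the WT-labelled ones. The log2 ratio was -1.01 ± 0.19 (SD, n = 3) in KO and -0.35 ± 0.19 in WT, a difference of -0.66 (exact permutation test, p = 0.1, the smallest p this design allows, and 0.6 after adjustment over the 6 ratios). Leaving out each library in turn gave differences from -0.76 to -0.55.

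**Figure D4:**
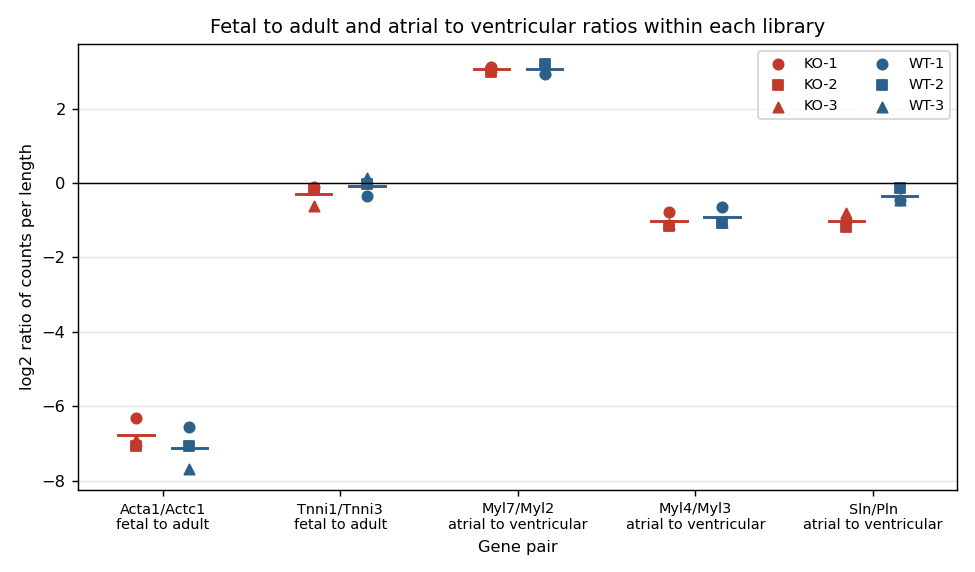
Log2 ratio of counts per length for 5 gene pairs in each library (red, labelled KO, and blue, labelled WT). The shape gives the replicate number, the short lines are group means, and *Myh7* to *Myh6* is left out because it rests on 0 to 4 counts. *Myl7* to *Myl2* lies near 3 in every library, *Tnni1* to *Tnni3* near 0, and only *Sln* to *Pln* separates the labels, with means of -1.01 and -0.35.

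Further cardiomyocyte genes outside the 33 were read from 3 lists. Of the sarcomere list, 8 of the 17 genes tested were lower and 0 higher with TMM (median log2 fold change -0.41), and with fibroblast scaling 0 were lower and *Flnc* and *Myom1* higher (median -0.01). Its most abundant genes were the tropomyosin *Tpm1*, which fibroblasts also make (52.5 ± 5.43 FPKM in KO and 67.2 ± 2.04 FPKM in WT, SD, n = 3; log2 fold change -0.39, adjusted p = 0.00571 from edgeR), the filamin *Flnc* (log2 fold change -0.05, adjusted p = 0.458) and the small heat shock protein *Hspb7* (log2 fold change -0.47, adjusted p = 0.00198). Of the other calcium and excitation genes, 2 of 15 were lower and 2 higher, near the 12.5% and 17.7% of all genes, and with fibroblast scaling, where 60.6% of all genes were higher, 1 was lower (*Jph2*) and 5 higher (*Camk2d*, *Kcnq1*, *Kcnj2*, *Gja1* and *Asph*). Junctophilin 2 (*Jph2*), which ties the sarcoplasmic reticulum to the cell membrane, had 11.9 ± 2.71 FPKM (SD, n = 3) in KO and 22.8 ± 1.70 FPKM in WT (log2 fold change -0.97, standard error 0.14, adjusted p = 0.00175 from edgeR), and like *Sln* it was called lower in all 16 alternative fits, with -0.56 under fibroblast scaling. The other gene lower was sarcalumenin (*Srl*, log2 fold change -0.53), and the 2 higher were the potassium channel *Kcnq1* (log2 fold change 2.84) and the calmodulin kinase *Camk2d* (0.31). *Camk2d* passed in 12 of the 16 alternative fits, with log2 fold changes from 0.18 to 0.72. *Gja1*, the most abundant of that list and a gap junction gene that fibroblasts also express, had a log2 fold change of 0.00 (edgeR adjusted p = 0.983), and *Asph* had -0.12 (adjusted p = 0.143).

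Of 9 other muscle energy genes tested, 2 were lower and 1 higher with TMM, where 12.5% and 17.7% of all genes were. *Slc25a4*, the mitochondrial ADP/ATP carrier, and *Cox6a2*, a heart subunit of cytochrome c oxidase, were lower (log2 fold change -0.25 and -0.68, edgeR adjusted p = 0.00575 and 0.0235), and the muscle enolase *Eno3* was higher (log2 fold change 0.52, adjusted p = 0.0051). *Cox6a2* passed in 10 of the 16 alternative fits. With fibroblast scaling 0 were lower and 4 higher (*Eno3*, *Hadha*, *Acadm* and *Slc25a4*), against 60.6% higher of all genes. *Slc25a4* then had 0.15, below the median of all genes of 0.39. *Hadha*, an enzyme of fatty acid oxidation, did not pass (log2 fold change -0.14, adjusted p = 0.0736 from edgeR). Markers of skeletal muscle were low. The sum over 14 such genes was 3.24 to 3.40 FPKM in the KO-labelled libraries against 3.00 to 3.94 FPKM in the WT-labelled ones, and *Myh2*, *Myod1* and *Myog* had a count of 0 in every library. The most abundant of them, *Casq1*, *Mylpf* and *Myl1*, each had a mean under 1 FPKM in both labels, and 0 of the 6 genes tested passed in edgeR (0 at an unadjusted p under 0.05).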

How the data were processed

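Poly(A)-enriched RNA of 3 libraries labelled KO and 3 labelled WT was sequenced by the authors as paired-end reads and aligned to mm10 with HISAT2. The counting tool, its strand setting and the annotation release are not given in the sources used here. The deposited table holds whole-number read counts per gene and, from the authors, FPKM per gene for 34745 genes, of which 20854 had a count in any library. Every column of the table was mapped to a library by its name. FPKM were used for levels between genes and in the limma alternatives, and counts for the other tests.

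Counts were filtered with filterByExpr, normalized with TMM and tested with edgeR 4.0.16 in R 4.3.3 (glmQLFit and glmQLFTest), with Benjamini-Hochberg adjustment over 14084 genes and a threshold of 0.05. Adjusted p-values come from edgeR, each adjusted over the genes of its own fit, except where DESeq2 or limma is named. Ranges and tallies over the alternatives include both, and the gene pair ratios were adjusted over 6. For gene pair ratios 0.5 was added to each count, and each count was divided by the gene length implied by the deposited counts and FPKM. Alternatives covered the filter (none, or mean CPM of at least 1), the tool (DESeq2 1.42.0, or limma 3.58.1 on log2(FPKM + 1) and log2(FPKM + 0.1)), the scaling (library size, upper quartile, fibroblast or macrophage markers), blocking on the replicate number, and each library left out. The scripts were tested on simulated data.

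The named genes are all 33 cardiomyocyte genes, *Kdm5b*, the 3 most abundant genes of each other list, and genes behind a count of 5 or fewer. The cardiomyocyte genes, the marker lists and the tests were chosen with earlier results of these data known. Promoters were read from a RefSeq table (GRCm38.p6). No pair of replicates was a duplicate, since 22.4% to 32.2% of genes differed within pairs at an unadjusted p under 0.05.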

Additional observations from a re-analysis of the deposited data

How the results depend on the processing

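The calls depended mainly on scaling. Scaled on fibroblast markers, 46 of all genes were lower and 8538 higher in the libraries labelled KO, with 1 of the cardiomyocyte genes lower and 1 higher. Scaled on macrophage markers, these numbers were 46, 8223, 1 and 1. The other fits called 10 to 17 of the cardiomyocyte genes lower. Leaving out 1 library at a time gave 1131 (without KO replicate 3) to 1614 genes lower over all genes, and 10 to 15 of the cardiomyocyte genes. Signs turned with fibroblast scaling for *Acta1* (0.26), *Myl2* (0.0526), *Myl3* (0.18), *Myl4* (0.0801), *Myl7* (0.0729), *Tnnc1* (0.0393), *Ttn* (0.12), *Tcap* (0.26), *Csrp3* (0.30), *Xirp1* (0.0228), *Nppb* (0.0627), *Ryr2* (0.0884), *Ckm* (0.32) and *Mb* (0.12), and with macrophage scaling for *Acta1* (0.24), *Myl2* (0.0345), *Myl3* (0.16), *Myl4* (0.0595), *Myl7* (0.0516), *Tnnc1* (0.0192), *Ttn* (0.11), *Tcap* (0.24), *Csrp3* (0.28), *Nppb* (0.043), *Ryr2* (0.0669), *Ckm* (0.30) and *Mb* (0.10). By construction, each scaling moves all genes by about the same amount. The move was upward since both marker lists had lower medians in the libraries labelled KO. It took the median of all genes to 0.39 with fibroblast and 0.37 with macrophage scaling. The summed log2 difference of -0.34 was -0.23 in CPM, 0.0574 as a ratio to fibroblast markers and -0.26 without the 3 most abundant genes.

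Leaving out single libraries gave log2 fold changes of -0.31 to 0.23 for *Csrp3*, -0.20 to 0.0807 for *Ckm*, -0.39 to 0.16 for *Acta1* and -0.0152 to 0.56 for *Ckmt2*, all with under 25 counts per library. Among genes not called, *Ttn* moved to -0.14 and *Myl3* to -0.14 without KO replicate 1, *Myl4* to -0.18 without WT replicate 1, and *Tcap* ran from -0.23 to -0.0403. Differences of the log2 ratio ran from -1.42 to 0.0528 for *Myh7* to *Myh6*, from -0.0381 to 0.0887 for *Myl7* to *Myl2* and from -0.21 to 0.0487 for *Myl4* to *Myl3*. Replicate numbers did not pair the libraries, since same-numbered deviations correlated at 0.00, 0.00 and 0.03. With the replicate number as a block, 1591 genes were lower and 2316 higher, with 13 and 0 of the cardiomyocyte genes. The calls of *Myl2* and *Ldb3* were lost with the block (edgeR adjusted p = 0.0521 and 0.0558), and *Ttn* was called lower (-0.29, adjusted p = 0.0235). With the block *Sln* to *Pln* stayed at -0.66 (exact sign-flip test, p = 0.25, the smallest it can give). Depth limits *Myh7*, *Xirp2*, *Csrp3*, *Ckmt2*, *Acta1* and *Ckm*. Where a cause is not named above, the cause was not tested.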
